A study of Mus musculus with 12 samples.

Results

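The ABC transporter genes other than Abca1 and Abcg1 were followed across 12 RNA-seq libraries of mouse bone marrow derived macrophages. All genes of the deposited expression table whose symbols belong to the ABC subfamilies A to G were taken and Abca1 and Abcg1 were set aside, which left 31 of the 13553 genes. They comprised 8 genes of subfamily A, 8 of B, 5 of C, 4 of D, 1 of E, 3 of F and 2 of G. Tap1 and Tap2, ABC peptide transporters of subfamily B, carry other symbols and were not taken in by this rule. The 31 reached at least 1 CPM (a count scaled to library size) in at least 3 libraries and were tested, and for 3 of them, Abca13, Abcb9 and Abcg3, the libraries at that level came wholly or nearly so from one IL4 state. Another 17 mouse ABC genes named in RefSeq were not analysed here.

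ABC proteins bind and hydrolyse ATP, and most use it to move a substrate across a membrane. In macrophages the family is best known through Abca1 and Abcg1, which pass cholesterol to lipoproteins. Its other members export drugs, conjugates and lipid mediators at the plasma membrane, load lipids or peptides into peroxisomes, lysosomes and mitochondria, or, without a membrane domain, act on the ribosome.

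Bone marrow from wild-type male C57BL/6 mice had been grown for 7 days in medium with M-CSF (10 ng/mL), which yields macrophages. The cells then stood for 24 h with 20 ng/mL IL4, a cytokine that induces alternative activation, or without IL4, were washed, and spent 6 h in all-trans retinoic acid (RA, 1 µM) or in DMSO as vehicle. The series asked what RA does to the transcriptome of IL4-activated and naive macrophages. The 4 groups of 3 libraries are called IL4 RA, IL4 vehicle, naive RA and naive vehicle, and values per library follow the replicate numbers 2, 3 and 4. Strain, genotype, sex and M-CSF culture were the same in all groups. The age and number of the mice are not given in the sources used here, nor do the labels say whether replicates were separate animals or cultures, so the p-values reflect only how far these libraries spread.

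Levels are the authors' log2 CPM, and a difference is that between 2 group means on this scale, with its standard error (SE) from 1 limma model over 12116 genes. A gene was called when its Benjamini-Hochberg adjusted p, taken over all tested genes of a contrast, lay under 0.05. Steps between the lowest values put the worth of 1 read at 0.0209 to 0.0324 CPM and the depth at 30.9 to 47.8 M reads, where the IL4 RA libraries were the shallowest. Replicates correlated across genes at Pearson r of 0.993 to 0.996. All 8 macrophage markers were present and summed to 21670 to 23150 CPM in IL4 RA, 20550 to 22780 CPM in IL4 vehicle, 34420 to 38780 CPM in naive RA and 34920 to 37340 CPM in naive vehicle libraries. Most of each sum came from Lyz2, which differed with IL4 by -0.89 in vehicle and -0.86 in RA. The markers did not move together. With IL4, 5 of the 8 were called lower and 1 higher in vehicle, and 5 lower and 2 higher in RA. Mrc1 rose, by 1.48 and 1.56. Of all genes, 29.6% fell in vehicle and 26.7% in RA. In bulk RNA fewer cells of a type and less RNA per cell cannot be told apart.

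Per kilobase of transcript the members spanned a wide range. In naive vehicle cells Abcf1, a ribosome-associated factor of translation initiation, stood at 34.1 CPM per kb and Abcc3, an exporter of bile salts and glucuronides, at 34 CPM per kb, both among the highest members. In IL4 vehicle cells the order was led by Abcc1, the exporter of leukotriene C4 and glutathione conjugates, with 45.2 CPM per kb, and by Abcc5, an exporter of cyclic nucleotides, with 41.3 CPM per kb. Abcc3 held rank 10 of 31 in IL4 RA, 13 in IL4 vehicle, 1 in naive RA and 3 in naive vehicle cells. Abca13 was the lowest member in all 4 groups. These levels use the longest annotated protein-coding transcript of each gene, and neighbours in the order were not tested against each other.

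**Figure D1:**
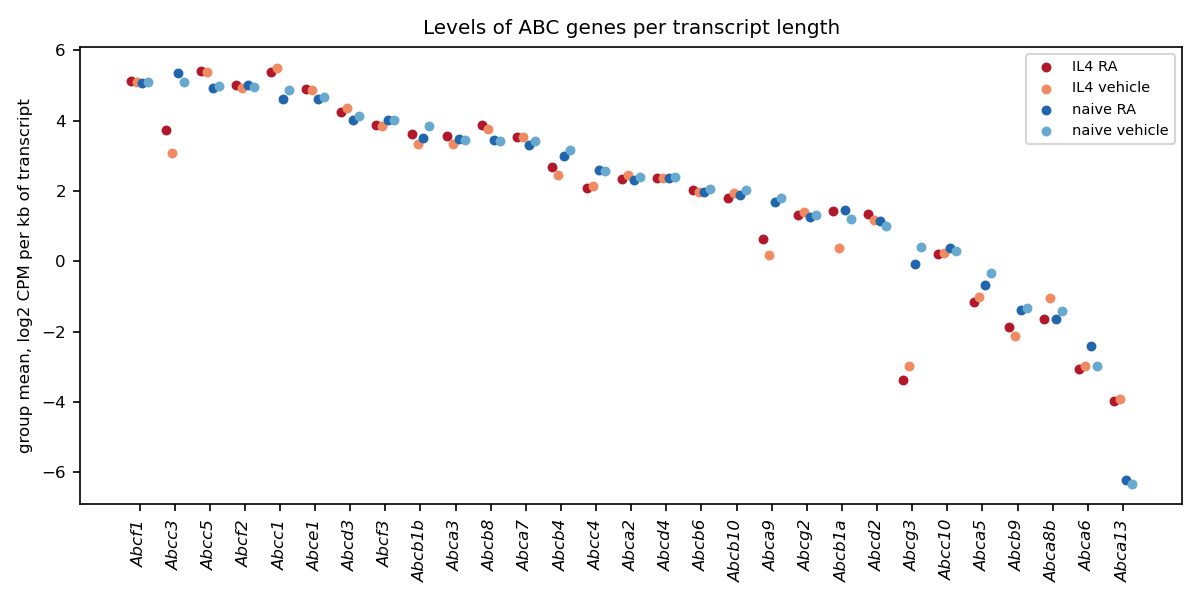
Group mean levels of 29 ABC genes per kilobase of transcript (log2 CPM per kb), with 1 colour per group and genes ordered by their level in naive vehicle cells. Abcc1 stands at 45.2 CPM per kb in IL4 vehicle and 29 CPM per kb in naive vehicle cells, and Abcc3 at 8.48 and 34 CPM per kb.

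What IL4 pre-treatment left in the ABC family was read from 2 contrasts, with vehicle and with RA. In vehicle, 19 of the 31 members (61.3%) were called, against 60.1% of all tested genes. Of these, 7 rose and 12 fell, where 30.5% of all genes rose and 29.6% fell. In RA, 17 members (54.8%) were called, 7 higher and 10 lower, against 55.7% of all genes, of which 29% rose and 26.7% fell. The share of members called lay near that of all genes in both media. These counts include Abca13, Abcb9 and Abcg3, which passed the low-level filter only through the state in which they were higher, and without them 16 of 28 (57.1%) were called in vehicle and 14 of 28 (50%) in RA. The median log2 difference of all 31 members was -0.0476 in vehicle, against -0.00742 over all genes, and -0.000334 in RA, against -0.00436 over all genes. Of the 10 plasma membrane exporters, 6 fell and 2 rose in vehicle, and 4 fell and 2 rose in RA. The falls in both media include Abcg3, which passed the filter only through naive cells.

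**Figure D2:**
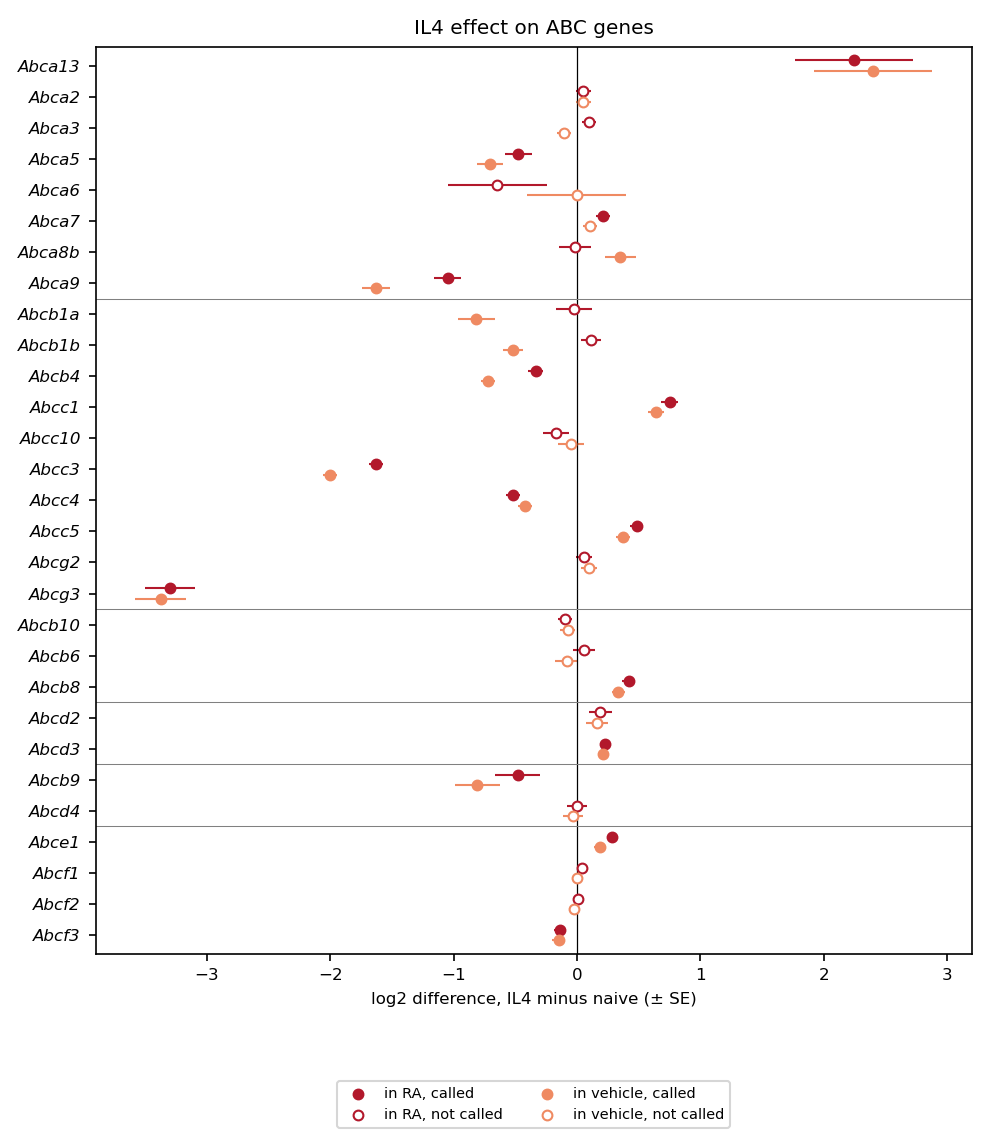
Log2 difference of 29 ABC genes between IL4 and naive cells, with SE bars, in RA and in vehicle (n = 3 libraries per group), grouped by role. Filled points were called, and Abcg3 at -3.30 and -3.38 and Abca13 at 2.24 and 2.40 lie farthest out.

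**Figure D3:**
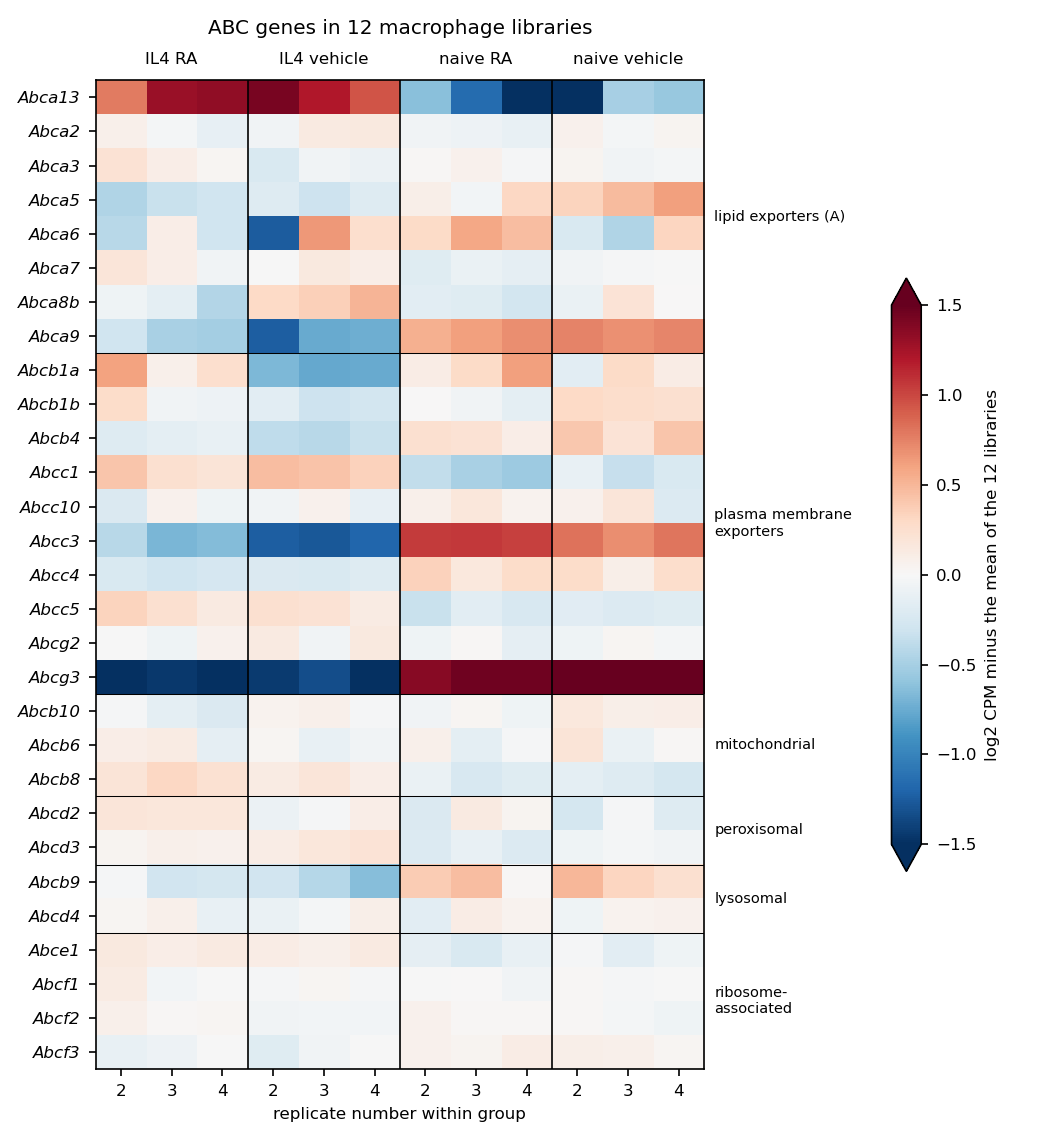
Level of 29 ABC genes in each of the 12 libraries, as log2 CPM minus the gene's mean over the 12 libraries (colour, cut at 1.5 either way), by group and replicate number. All 6 IL4 libraries are below all 6 naive libraries for Abcg3, Abcc3 and Abca9 and above them for Abca13.

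Abcc3, on chromosome 11 (94343295 to 94393017, minus strand; RefSeq GRCm38.p6), had the second-largest fall among the members. It stood at 6.22, 5.96 and 5.99 log2 CPM in IL4 RA, at 5.40, 5.37 and 5.45 in IL4 vehicle, at 7.69, 7.70 and 7.67 in naive RA, and at 7.45, 7.34 and 7.44 in naive vehicle libraries. The 4 groups did not overlap. IL4 lowered it by 4.01-fold in vehicle (log2 difference -2.00, SE 0.06, limma adjusted p = 1.11e-11) and by 3.09-fold in RA (-1.63, adjusted p = 8.22e-11).

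Abcg3, a rodent relative of Abcg2 on chromosome 5, had the largest fall. The level was -1.90, -1.35 and -2.09 log2 CPM in IL4 RA and -1.35, -1.24 and -1.54 in IL4 vehicle, against 1.45, 1.55 and 1.55 in naive RA and 2.03, 1.85 and 2.12 in naive vehicle libraries. Every IL4 library lay below every naive library. The difference was -3.38 in vehicle (SE 0.20, adjusted p = 9.44e-09, 10.4-fold lower) and -3.30 in RA (adjusted p = 1.34e-08, 9.85-fold lower). IL4 libraries held an estimated 5 to 13 reads of it and naive libraries 96 to 186, so the fold in IL4 cells rests on few reads. It reached 1 CPM in 0 of 6 IL4 and 6 of 6 naive libraries, so it passed the filter only through the naive groups and had to differ with IL4. The p-values therefore add nothing to the levels given. On a log2(CPM + 1) scale the differences were -1.85 and -1.58. With RA the difference was -0.41 in IL4 cells and -0.48 in naive cells and was not called (adjusted p = 0.233 and 0.203).

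Abcc1 moved the other way. It stood at 8.27, 8.09 and 8.05 log2 CPM in IL4 RA and at 8.32, 8.27 and 8.20 in IL4 vehicle, against 7.48, 7.37 and 7.30 in naive RA and 7.74, 7.51 and 7.62 in naive vehicle libraries. No IL4 library overlapped a naive one. IL4 raised it by 0.64 in vehicle (SE 0.07, adjusted p = 2.74e-06) and by 0.75 in RA (adjusted p = 6.28e-07). Abcc5 also rose, by 0.38 in vehicle and 0.48 in RA (adjusted p = 5.38e-05 and 5.58e-06).

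Abcc4, which exports cyclic nucleotides and prostaglandins, stood at 4.64, 4.57 and 4.61 log2 CPM in IL4 RA and 4.65, 4.64 and 4.67 in IL4 vehicle, against 5.21, 5.02 and 5.14 in naive RA and 5.14, 4.96 and 5.13 in naive vehicle libraries. All 6 IL4 libraries were below all 6 naive ones. It fell by 0.52 in RA and by 0.42 in vehicle (adjusted p = 6.36e-06 and 3.89e-05). Abcg2, a drug and urate exporter, and Abcc10, a multidrug exporter, were not called in any of the 5 contrasts.

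Abcb1a, Abcb1b and Abcb4 lie next to one another on chromosome 5 (8567091 to 8748575, 8798147 to 8866314 and 8893614 to 8959226, plus strand). Abcb1a and Abcb1b encode the P-glycoproteins, pumps for lipophilic drugs, and Abcb4 carries phosphatidylcholine to the outer leaflet. Between them Gm5106, a lncRNA, overlaps the start of Abcb1b and stood at -1.02 to 0.03 log2 CPM. On a scan of 101-base windows, 7.58% of Abcb1a and 8.58% of Abcb1b windows were shared with another gene and 0.251% of Abcb4 windows, so a small part of the reads could be split between these copies. Because all 3 neighbours were called lower with IL4 in vehicle and higher with RA in IL4 cells, the 250 bases before their RefSeq start sites (GRCm38.p6, plus strand) are shown, at chr5:8566841-8567090, chr5:8797897-8798146 and chr5:8893471-8893720. Capitals mark matches, on either strand, to the motifs searched.
Abcb1a: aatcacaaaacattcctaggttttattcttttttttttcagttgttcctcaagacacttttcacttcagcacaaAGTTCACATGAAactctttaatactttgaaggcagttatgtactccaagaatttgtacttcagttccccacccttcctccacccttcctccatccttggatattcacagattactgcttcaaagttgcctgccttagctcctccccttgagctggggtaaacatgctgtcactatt
Abcb1b: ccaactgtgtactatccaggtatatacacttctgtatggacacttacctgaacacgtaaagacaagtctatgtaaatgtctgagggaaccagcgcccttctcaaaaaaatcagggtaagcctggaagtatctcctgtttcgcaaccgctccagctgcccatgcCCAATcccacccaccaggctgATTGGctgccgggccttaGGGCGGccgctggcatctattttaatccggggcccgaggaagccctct
Abcb4: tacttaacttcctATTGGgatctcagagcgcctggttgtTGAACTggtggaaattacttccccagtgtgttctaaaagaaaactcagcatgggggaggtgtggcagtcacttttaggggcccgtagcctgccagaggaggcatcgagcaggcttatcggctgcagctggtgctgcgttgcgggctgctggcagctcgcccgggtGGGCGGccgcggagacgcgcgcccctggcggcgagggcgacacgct

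The motifs were the nuclear receptor half-sites AGGTCA and AGTTCA, either repeated after 5 bases (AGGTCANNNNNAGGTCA, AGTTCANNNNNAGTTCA), the STAT-type motif TTCNNNNGAA, the GC box GGGCGG and CCAAT. The start site used for Abcb4 lies within the gene interval given above. The Abcb1a window held AGTTCA at -176, overlapping TTCACATGAA at -174, counted from the start site. In Abcb1b, CCAAT stood at -87 and on the minus strand at -66, and GGGCGG at -48. The Abcb4 window held CCAAT on the minus strand at -237, AGTTCA on the minus strand at -211, and GGGCGG at -46. Among 32851 mouse promoter windows of this length, 11.8% held AGTTCA, 14% AGGTCA, 5.85% TTCNNNNGAA, 32.7% GGGCGG and 33.8% CCAAT, while the AGTTCA repeat stood in 0.0213% and the AGGTCA repeat in 0.00913%. Neither repeat stood in the 3 windows shown.

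Abcb1a stood at 4.05, 3.52 and 3.69 log2 CPM in IL4 RA and 2.76, 2.68 and 2.69 in IL4 vehicle, against 3.55, 3.73 and 4.06 in naive RA and 3.29, 3.74 and 3.55 in naive vehicle libraries. The 3 IL4 vehicle libraries were below the other 9. In vehicle, IL4 lowered it by 0.81 on the log2 scale (SE 0.15, adjusted p = 0.000346), whereas in RA the difference was -0.02 and was not called.

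For Abcb1b the level was 5.96, 5.64 and 5.60 log2 CPM in IL4 RA and 5.53, 5.37 and 5.41 in IL4 vehicle, against 5.69, 5.63 and 5.53 in naive RA and 5.99, 5.94 and 5.92 in naive vehicle libraries. IL4 RA library 2 lay above its 2 replicates. IL4 lowered it by 0.52 in vehicle (adjusted p = 9.34e-05), and in RA the difference was 0.12 and was not called.

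Abcb4 stood at 4.66, 4.70 and 4.74 log2 CPM in IL4 RA and 4.46, 4.43 and 4.51 in IL4 vehicle, against 5.09, 5.06 and 4.95 in naive RA and 5.25, 5.06 and 5.26 in naive vehicle libraries. All IL4 libraries lay below all naive libraries. It fell by 0.72 in vehicle (SE 0.06, adjusted p = 2.46e-07) and by 0.33 in RA (adjusted p = 0.000344).

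**Figure D4:**
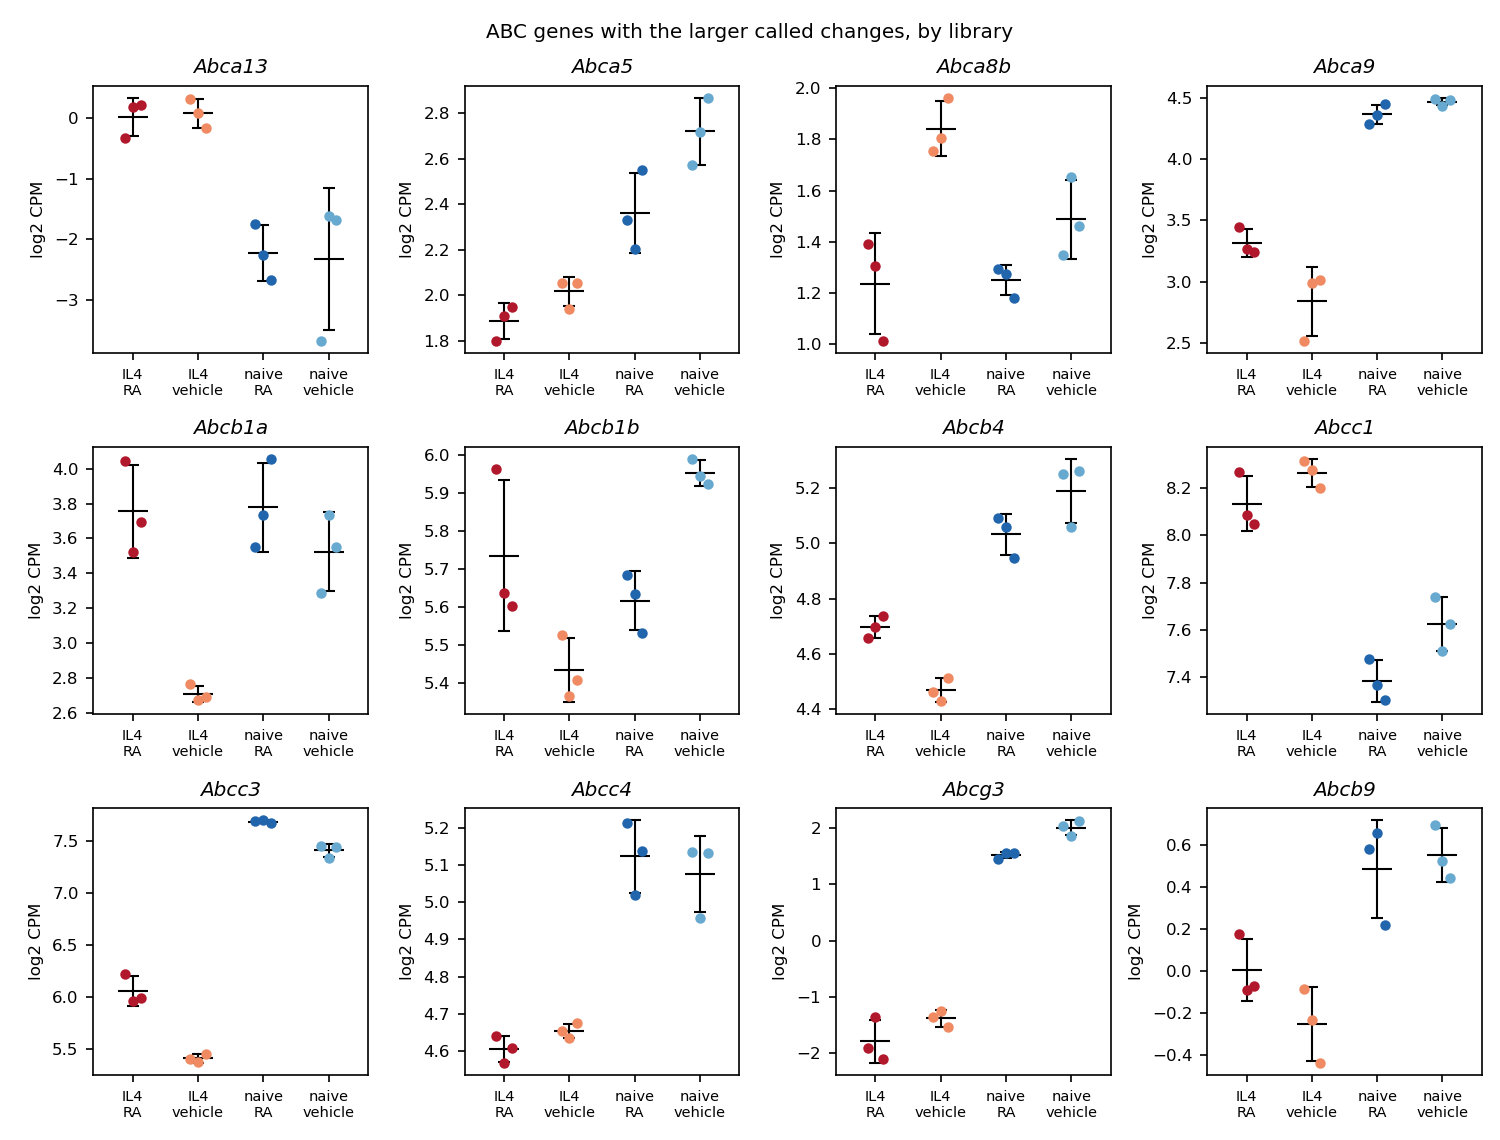
Log2 CPM in each library (points), with group mean and SD (bars, n = 3), for the 12 ABC genes with a called log2 difference of at least 0.5. The 3 IL4 vehicle libraries of Abcb1a lie below the other 9, and those of Abcg3 and Abcc3 lie far from the naive ones.

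Among the 8 subfamily A genes, 2 rose and 2 fell in each IL4 contrast. Abca9 and Abca5 fell in both. Abca13, which passed the filter only through IL4 cells, rose in both, beside Abca8b in vehicle and Abca7 in RA. Abca9, one of a group of neighbours on chromosome 11 with Abca8b, Abca6 and Abca5, stood at 3.45, 3.26 and 3.24 log2 CPM in IL4 RA, 2.52, 2.99 and 3.02 in IL4 vehicle, 4.28, 4.36 and 4.45 in naive RA and 4.49, 4.44 and 4.48 in naive vehicle libraries. IL4 libraries lay below naive ones throughout. It fell by 1.63 in vehicle (SE 0.11, adjusted p = 3.33e-08) and by 1.05 in RA (adjusted p = 3.01e-06).

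Abca5, a lysosomal member, stood at 3.48, 3.76 and 3.86 CPM in IL4 RA, 4.16, 3.84 and 4.15 CPM in IL4 vehicle, 5.03, 4.61 and 5.86 CPM in naive RA and 5.96, 6.59 and 7.3 CPM in naive vehicle libraries. IL4 and naive libraries did not overlap, and it fell by 0.70 in vehicle and by 0.48 in RA on the log2 scale (adjusted p = 8.19e-05 and 0.00202).

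Abca8b, which promotes cholesterol efflux in mice, stood at 1.39, 1.30 and 1.01 log2 CPM in IL4 RA, 1.76, 1.81 and 1.96 in IL4 vehicle, 1.29, 1.27 and 1.18 in naive RA and 1.35, 1.65 and 1.46 in naive vehicle libraries. The IL4 vehicle libraries lay above the other 9. It rose by 0.35 with IL4 in vehicle (adjusted p = 0.0302). Leaving out IL4 vehicle library 3 or 4 ended that call (adjusted p = 0.0543 and 0.107), as did leaving out naive vehicle library 2 or 4 (0.113 and 0.0752). In RA the groups overlapped, with a difference of -0.01. Abca7, a phospholipid exporter with a part in phagocytosis, rose by 0.21 in RA (adjusted p = 0.0055). In vehicle its difference of 0.10 was called only without IL4 vehicle library 2, at adjusted p = 0.0453, or with library weights, at 0.0198.

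Abca13, a very large member of unsettled function, stood at -0.34, 0.18 and 0.22 log2 CPM in IL4 RA and 0.31, 0.09 and -0.16 in IL4 vehicle, against -1.74, -2.27 and -2.66 in naive RA and -3.67, -1.62 and -1.68 in naive vehicle libraries. Every IL4 library lay above every naive one. It rose by 2.40 with IL4 in vehicle (SE 0.48, adjusted p = 0.000729) and by 2.24 in RA (adjusted p = 0.00133). Naive vehicle library 2 held the lowest value deposited, an estimated 0 reads, and the other naive libraries held 3 to 10 reads, so the size of this change is inexact. It reached 1 CPM in 4 of 6 IL4 and 0 of 6 naive libraries. It thus passed the filter only through the IL4 groups and, like Abcg3, had to differ with IL4. Its p-values too add nothing to the levels given. On a log2(CPM + 1) scale the differences were 0.74 and 0.73. Abca6 was also at low levels and was called in no contrast, and in RA its difference of -0.65 was called without IL4 vehicle library 2 (adjusted p = 0.0463).

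In mitochondria, Abcb8, a member linked to iron export, rose by 0.34 in vehicle and 0.42 in RA (adjusted p = 7.60e-05 and 1.09e-05). Abcb10 and Abcb6 were not called, and 86.6% of Abcb6 windows were shared with Gm29253, so its counts are uncertain. The Abcb10 difference in RA, -0.10, was called without IL4 RA library 2 (adjusted p = 0.0443).

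In peroxisomes, Abcd3, which imports branched-chain acyl-CoA, rose by 0.21 in vehicle and 0.23 in RA (adjusted p = 0.000388 and 0.000189). Abcd2, a carrier of fatty acyl-CoA, had differences of 0.16 and 0.19 that were not called, and the difference in RA was called without naive RA library 3 (adjusted p = 0.036). In lysosomes, Abcb9, a peptide transporter, stood at 0.17, -0.09 and -0.07 log2 CPM in IL4 RA, -0.09, -0.23 and -0.44 in IL4 vehicle, 0.58, 0.65 and 0.22 in naive RA and 0.69, 0.52 and 0.44 in naive vehicle libraries. It fell by 0.81 in vehicle (adjusted p = 0.00178) and by 0.48 in RA (adjusted p = 0.0382). It passed the filter only through naive cells, with 1 of 6 IL4 and 6 of 6 naive libraries at 1 CPM. As for Abcg3, its p-values with IL4 therefore add nothing to the levels given. On a log2(CPM + 1) scale the differences were -0.42 and -0.26. The call in RA was lost without IL4 RA library 3 or 4 (adjusted p = 0.0995 and 0.0923) or naive RA library 2 or 3 (0.11 and 0.134). Abcd4, which moves cobalamin out of lysosomes, was not called.

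Of the ribosome-associated members, Abce1, which splits ribosomes for recycling, rose by 0.18 and 0.29 in vehicle and RA (adjusted p = 0.00242 and 7.65e-05). Abcf3 fell by 0.15 and 0.14, and both calls were sensitive to single libraries. Its call in vehicle was lost without naive vehicle library 2 or 3 (adjusted p = 0.063 and 0.0542) or IL4 vehicle library 2 (0.101), and its call in RA without IL4 RA library 2 or 3 (0.103 and 0.0871) or naive RA library 2 or 4 (0.0579 and 0.119). Abcf1 and Abcf2 were not called.

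Beside the IL4 contrasts, 5 of 7 dendritic cell markers were present. Of the 4 tested, 3 were called higher with IL4 and 1, Kit, lower, in vehicle and in RA alike. The 5 summed to 1675 to 1913 CPM in IL4 RA, 1637 to 1818 in IL4 vehicle, 35.7 to 42.9 in naive RA and 36.9 to 43 in naive vehicle libraries, most of it from Itgax. The 9 of 9 stromal and endothelial markers summed to 35 to 53.9, 47.1 to 55.8, 67.6 to 69.3 and 65.8 to 77.9 CPM in the same order, 2 of 8 neutrophil markers to 3.48 to 4.34, 3.6 to 4.27, 2.14 to 2.57 and 2.14 to 2.34 CPM, and 2 of 7 eosinophil, mast cell and basophil markers to 86.2 to 104.5, 68.8 to 86, 9.28 to 10.8 and 8.62 to 9.83 CPM. The 1 of 7 T and NK cell marker present, Cd4, stood at 2.88 to 3.94, 3.16 to 4.25, 15.4 to 17.9 and 15.1 to 18.6 CPM. The 4 of 6 stem cell markers present summed to 100.1 to 110.8, 125.2 to 164.2, 57.8 to 92.8 and 56.7 to 91.5 CPM. These 4 did not move together. With IL4, 1 was called higher and 1 lower in vehicle, and 1 higher and 2 lower in RA. Procr differed by 1.90 in vehicle and 1.72 in RA, and Kit by -1.88 and -1.37. Of 6 B cell markers 0 were among the genes analysed here, nor were Ly6g, Elane and Mpo of neutrophils, Cd3e of T cells, Flt3 of dendritic cells, or Epx and Cpa3 of eosinophils and mast cells. The part of these markers in the results was not tested.

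What RA does was read separately in IL4 and in naive cells. In IL4 cells 7 of 31 members were called (22.6%), against 11.7% of all genes. Of these, 6 rose and 1 fell, where 6.5% of all genes rose and 5.18% fell. In naive cells 2 members (6.45%) were called, 1 higher and 1 lower, against 6.26% of all genes, of which 3.24% rose and 3.03% fell. The count in naive cells was 1 without naive vehicle library 2 or 4 and 0 without naive RA library 3. There 8 of the 31 members had an unadjusted limma p under 0.05, against 19.9% of all genes. The median difference of the members was 0.0233 in IL4 cells, against 0.00232 over all genes, and -0.0579 in naive cells, against -0.00125 over all genes. The RA contrast in IL4 cells and the IL4 contrast in vehicle share the IL4 vehicle libraries, so their values are given beside each other and not correlated.

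**Figure D5:**
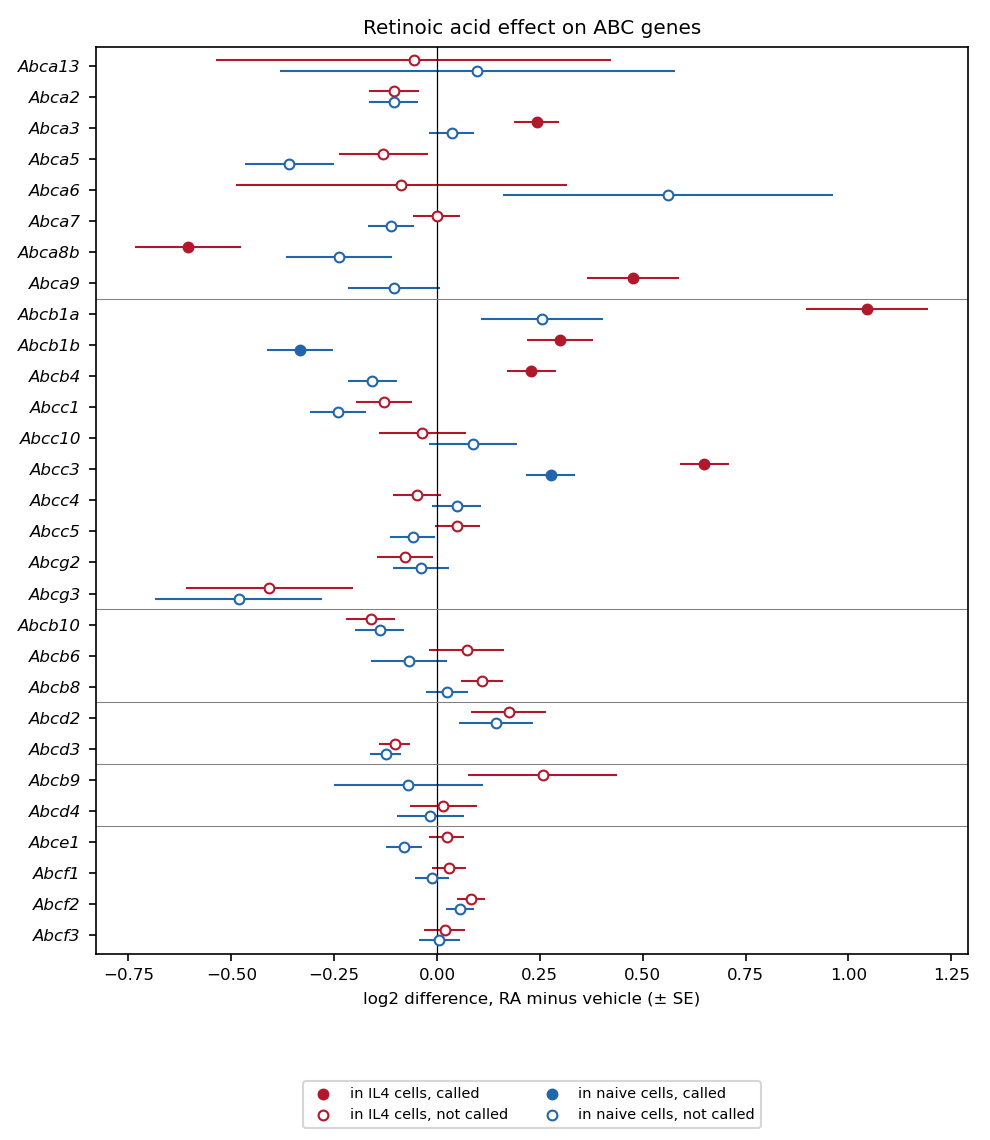
Log2 difference of 29 ABC genes between RA and vehicle, with SE bars, in IL4 and in naive cells (n = 3 libraries per group). Filled points were called, with Abcb1a at 1.05 and Abca8b at -0.60 in IL4 cells.

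Abcb1a showed the largest rise with RA. In IL4 cells it rose 2.06-fold (1.05, SE 0.15, adjusted p = 0.000429), with all 3 RA libraries above all 3 vehicle libraries, and in naive cells its difference of 0.25 was not called (adjusted p = 0.379). Abcc3 rose by 0.65 in IL4 cells (SE 0.06, adjusted p = 8.27e-06) and by 0.28 in naive cells (adjusted p = 0.0132). The call in naive cells was lost without naive RA library 3 (adjusted p = 0.0518).

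Abcb1b rose by 0.30 in IL4 cells (adjusted p = 0.0278) and fell by 0.33 in naive cells (adjusted p = 0.0251), and in both the RA and vehicle libraries did not overlap. The rise was lost without IL4 vehicle library 3 or 4 (adjusted p = 0.104 and 0.08) or IL4 RA library 2 (0.0537). The fall was lost without naive vehicle library 2, 3 or 4 (0.0825, 0.0519 and 0.0718) or naive RA library 3 or 4 (0.0685 and 0.108). The difference between the 2 responses, 0.63 (SE 0.11, 95% interval 0.39 to 0.88), was the only interaction called among the members (limma adjusted p = 0.0325), 1 of 31 (3.23%) and 0 lower, against 0.38% of all genes, of which 0.338% were higher and 0.0413% lower. It too was lost when any 1 of 8 libraries was left out, at adjusted p between 0.0519 and 0.095: IL4 vehicle 3 and 4, IL4 RA 3, naive vehicle 2, 3 and 4, and naive RA 3 and 4.

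The interaction was 0.79 for Abcb1a (95% interval 0.34 to 1.24), 0.39 for Abcb4 (0.20 to 0.57) and 0.37 for Abcc3 (0.19 to 0.55), none called (adjusted p = 0.195, 0.0934 and 0.101). For Abcb4 it was called without naive vehicle library 3 (adjusted p = 0.0291), and the RA response of Abcb4 in naive cells likewise (0.0342). With library weights the interaction was called for Abcb4 (adjusted p = 0.016) and for Abcc3 (0.0225). The interaction was positive for 24 of 31 members, against 52.5% of all genes, and 1 was called. For some of the 24, among them Abca2 (0.0012) and Abcf3 (0.013), it changed sign under some alternatives. All rest on the same 12 libraries, so the members are not separate results.

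Abcb4 itself rose by 0.23 in IL4 cells (adjusted p = 0.025), with a difference of -0.16 in naive cells that was not called. The rise was lost without IL4 vehicle library 2 or 3 (adjusted p = 0.065 and 0.0912) or IL4 RA library 3 or 4 (0.0725 and 0.0798). Abca3, which fills the lamellar bodies of the lung with surfactant lipid, rose by 0.24 in IL4 cells (adjusted p = 0.0119), lost without IL4 vehicle library 2 (0.0504). Abca9 rose by 0.48 in IL4 cells (adjusted p = 0.0137), and by 0.31 without IL4 vehicle library 2 (adjusted p = 0.0208). Abca8b, by contrast, fell by 0.60 there (SE 0.13, adjusted p = 0.00785).

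In naive cells the remaining differences lay between -0.48 for Abcg3 and 0.56 for Abca6, at adjusted p of 0.0545 or higher. Abcc1 was nearest to a call at -0.24, and was called without naive RA library 2 (adjusted p = 0.0372), naive vehicle library 3 (0.0242) or IL4 RA library 2 (0.0288). Abca5, at -0.36, was called without naive RA library 4 (0.0426). With library weights Abcc1, Abca5, Abcb4 and Abcd3 were called lower in naive cells (adjusted p = 0.00378, 0.00909, 0.0189 and 0.0355). In IL4 cells Abcb10 was called without IL4 RA library 2 (0.033). None of the mitochondrial, peroxisomal, lysosomal or ribosome-associated members was called with RA in either state by this model.

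Beside the RA contrasts, 3 of 7 megakaryocyte and erythroid markers were present, and Pf4, a platelet chemokine gene, rose by 0.98 in IL4 cells and 0.90 in naive cells. Ppbp rose by 1.27 in naive cells (limma adjusted p = 0.0203). Its difference of 0.93 in IL4 cells was not called (0.0591), and Itga2b was not tested. The 3 markers summed to 41.8 to 58.2 CPM in IL4 RA, 20.9 to 33.6 in IL4 vehicle, 45.5 to 64.3 in naive RA and 26.2 to 33.1 in naive vehicle libraries, most of it from Pf4. Klf1, which marks erythroid cells, was not among the genes analysed here. The part of these markers in the RA results was not tested.

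Genes of related pathways were counted from lists, to be read against the share of all genes called with IL4: 60.1% in vehicle (30.5% higher, 29.6% lower) and 55.7% in RA (29% higher, 26.7% lower). With RA, 11.7% were called in IL4 and 6.26% in naive cells. The peptide loading list, which serves antigen presentation, holds Tap1 and Tap2 themselves and genes that act with them. Its genes rose in 6 of 8 in vehicle and 5 of 8 in RA, and the list median was 0.53 in vehicle and 0.35 in RA, with Tap1 at 1.12 and Tapbpl at 0.88 in vehicle. With RA in IL4 cells Tap2 fell by 0.27. Of 12 tested glutathione genes, whose products Abcc1 exports as conjugates, 6 rose and 2 fell in vehicle and 5 rose and 1 fell in RA, with Gss, the last enzyme of glutathione synthesis, at 0.98 in vehicle. Gsr, which regenerates reduced glutathione, rose with RA by 0.76 in IL4 cells and 0.67 in naive cells, and in IL4 cells Gstm1 rose by 0.22 and Gsto1 by 0.19.

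Of 4 tested leukotriene C4 genes, Ltc4s, the synthase of the lipid that Abcc1 exports, rose by 1.24 and Dpep2 by 1.08 with IL4 in vehicle, while Alox5ap fell by 0.53 and Alox5 by 0.55. In IL4 RA against naive RA 2 rose and 1 fell, and with RA in IL4 cells Ltc4s rose by 0.55. In the heme and iron-sulphur list of 16 genes, 3 rose and 4 fell in vehicle and 4 rose and 3 fell in RA, led by Alas1, the first enzyme of heme synthesis, at 3.11 in vehicle. In the peroxisome list of 16, 2 rose and 5 fell in vehicle, with Pex26 at 0.63, and 3 rose and 2 fell in RA.

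Against those 60.1% and 55.7% of all genes, 2 of the 8 cobalamin genes rose and 6 fell in vehicle and 2 rose and 5 fell in RA (list median -0.27 and -0.17), with the receptor gene Cd320 at 1.34 and the carrier gene Tcn2 at -0.83 in vehicle. Tcn2 rose with RA by 0.15 in IL4 cells and 0.14 in naive cells. Ribosome rescue and initiation genes rose in 4 of 8 and fell in 1 in vehicle, and rose in 6 and fell in 0 in RA. Of 6 tested xenobiotic response genes, 5 rose and 1 fell in both media (list median 1.46 in vehicle and 1.44 in RA), with the receptor gene Ahr at 3.29, Nqo1 at 2.49 and Cyp1b1 at 2.47 in vehicle. The interaction called none of these genes.

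Of the cholesterol exporters set aside here, Abca1 averaged 362.0 ± 40.9 CPM in IL4 RA, 251 ± 11 CPM in IL4 vehicle, 334 ± 17.6 CPM in naive RA and 294 ± 8.37 CPM in naive vehicle cells (SD, n = 3). Abcg1 averaged 161 ± 8.07, 198 ± 14.4, 159 ± 16.7 and 162 ± 12.9 CPM in the same order of groups.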

How the data were processed

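RNA was measured by stranded poly(A) sequencing, 101 cycles from 1 end, per the labels' protocols. The deposited values were log2 CPM, scaled by the authors with TMM factors. Per the submitters' processing notes they used bcl2fastq 2.20, Salmon 0.13.1, edgeR 3.32.1 and build GRCm38. The table held 13553 genes, 38 without a symbol, and the lowest value, -3.67 (0.0783 CPM), stood for 0 reads. Libraries summed to between 950904 and 1056493 CPM back on the linear scale. The steps between the lowest values gave the estimate of depth.

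A gene was tested if 3 or more libraries held 1 CPM or more of it (12116 kept; 1437 removed), in 1 limma 3.58.1 model (R 4.3.3) with 4 group means, an intensity trend and 5 contrasts, where the interaction subtracts the naive RA effect from that in IL4 cells. Two-sided p-values were adjusted per contrast (Benjamini-Hochberg). The model was tested on simulated data. Promoters and gene positions came from RefSeq (GRCm38.p6), found for 23 members, with 29 windows, and transcript lengths from GENCODE. Python 3.11.15 with pandas 2.3.3, numpy 2.4.6 and matplotlib 3.10.9 was used for sequences and figures. Members called in at least 1 contrast were described, with values in every library for those with a called log2 difference of at least 0.5 or a called interaction. Some members and listed genes are not reported here by name, though counts over the members include them. The members and lists were chosen with earlier results of these data known. Deviations from the group mean correlated between libraries of the same number at 0.245, 0.193 and 0.128 in the IL4 groups and 0.14, 0.209 and 0.182 in the vehicle groups, all above 0.1, so the numbers were taken to pair those libraries. Libraries of different numbers were not correlated for comparison. The reported p-values come from the limma model without a replicate block. Alternatives were 22 in number and changed filter, pseudocount, scaling, moderation, weights, the samples fitted, the replicate block and single libraries.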

Additional observations from a re-analysis of the deposited data

Results flagged for a closer look

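The RA response of Abcb1b differed between IL4 and naive cells by 0.634 on the log2 scale. It was flagged because limma's interaction term passed the threshold (adjusted p = 0.0325, n = 3 libraries per group), with a rise of 0.30 in IL4 cells and a fall of 0.33 in naive cells. The interaction's adjusted p lay between 0.00389 and 0.146 over the alternatives, so the call was not kept in all of them.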

How the results depend on the processing

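The number of members called in RA in IL4 cells (5 to 7 when each library was left out), in IL4 in vehicle (17 to 19) and in IL4 in RA (14 to 18) stayed within 1.5 times the reported count under all alternatives. In RA in naive cells the 2 calls became 1 without an intensity trend, 6 with library weights, 4 with the replicate block, which added Abcc1 (adjusted p = 0.00391) and Abca5 (0.0374), and 0 to 3 when single libraries were left out. The 1 interaction call became 0 without the trend, 3 with library weights, 2 with the replicate block, which added Abcc3 (0.048), and 0 to 1 when single libraries were left out. The naive correlations between same-numbered libraries were 0.51, 0.277 and 0.0706, and those between the RA groups 0.0895, 0.186 and 0.126, so the numbers were not taken to pair them, and between the RA groups the block added Abcd2 (0.0497). In the paired contrasts, RA in IL4 cells and IL4 in vehicle, the block changed no call. Of 46 calls, 35 were kept in every alternative and 11 were lost in at least 1, the cause of which was not tested. Beside single libraries, Abcb1b lost its calls without the trend (adjusted p = 0.0649 in naive cells, 0.0621 in IL4 cells, 0.146 for the interaction) and, in IL4 cells, with only the compared groups fitted (0.0634), as did Abcb9 for IL4 in RA (0.0747). Abca8b lost its IL4 call with quantile normalization (0.0938). Abcg3 gained a call with RA in naive cells with only the compared groups (0.0372) and with log2(CPM + 1) (0.0226). Of 155 pairs of member and contrast, 38 changed sign under some alternative, and these were not called under any. Their differences were at most 0.15 in size in the reported model but could be larger under alternatives. Abca6 with RA in IL4 cells, for example, ran from -0.65 to 0.30. None of the other pairs changed sign. The median log2 difference over all genes was at most 0.06 in size in every contrast, in the reported model and under all alternatives. At 4 CPM 26 members remained. Low members rest on few reads.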
